A study of Mus musculus with 12 samples.

Results

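Of the 47937 genes counted in 12 RNA libraries of macrophages grown from bone marrow, 10 were followed here: the Toll-like receptor genes Tlr1, Tlr2, Tlr3, Tlr4, Tlr6, Tlr7, Tlr8, Tlr9 and Tlr13, and Cd14. They were chosen by name, by matching the gene identifiers of the deposited table to mouse symbols. All 10 passed the filter on low counts, which left 11760 genes for testing. Macrophages were grown for 7 days with CSF-1 (20 ng/ml), the growth factor that drives macrophage differentiation, from C57BL/6 mice, which the study's methods give as 6 to 8 weeks old.

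The libraries fall into 4 groups of 3. Resting macrophages (M0) had no stimulus, and IFNγ + LPS macrophages were given IFNγ at 50 ng/ml together with LPS at 20 ng/ml for 18 h. The other 2 groups were resting or stimulated in the same way with T863 (50 μM) present, a small-molecule inhibitor of DGAT1, the enzyme that makes triglycerides from diglycerides. Sample titles give 18 h for both groups with T863 and no time for M0. This compound is called DGAT1i below, and no other DGAT1 inhibitor and no DGAT1 knockdown is among these libraries. The descriptions of 2 of the 3 libraries of M0 with DGAT1i carry another compound number, whereas their source names say T863. The study's methods describe M0 cells as kept in medium with CSF-1 and nothing more, and name no solvent control for T863 in the stimulated cells. The sample labels do not say whether the 3 libraries of a group came from separate mice or cultures, so that p-values measure the spread between these libraries, which may be technical.

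Toll-like receptors recognise conserved molecules of microbes. Tlr4, Tlr2, Tlr1 and Tlr6 act at the cell surface on lipopolysaccharide and lipoproteins, and Cd14 hands these ligands to them. Tlr3, Tlr7, Tlr8, Tlr9 and Tlr13 lie in endosomes and read nucleic acids. The adaptor Myd88 serves most of these receptors, whereas Tlr3 signals through Ticam1 and Tlr4 through both.

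Libraries held 4996014 to 6621671 reads, and levels are given as CPM, the count of a gene over the TMM-scaled size of its library. One unit, 1 CPM, stands for 4.28 to 7.58 reads. The median gene lay close to 0 between groups under TMM, whereas with library size as the only scaling it lay at -0.46 (log2) for IFNγ + LPS against M0 and at -0.43 for the same comparison with DGAT1i. Changes are therefore given relative to the median gene. All 6 macrophage markers examined had reads in every group. They summed to 3937 to 3948 CPM per library in M0 and 5492 to 5790 CPM in IFNγ + LPS. With DGAT1i they summed to 4017 to 4085 and 4961 to 5372 CPM in the same states. In IFNγ + LPS, DGAT1i gave 1 of the 6 higher and 3 lower, beside 13.5% and 16.3% of all genes. The 5 activation markers examined went from a sum of at most 1.06 CPM without the stimulus to between 13595 and 14901 CPM with it. T cell markers summed to at most 0.278 CPM and B cell markers to at most 0.562 CPM in every library, and those of fibroblasts and stroma to at most 2.11 CPM. Granulocyte markers differed between the groups, and their values are given beside the inhibitor results. In bulk RNA, fewer cells of a type and less RNA per cell cannot be told apart.

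Promoters are shown for 4 members: Tlr9, the gene with the largest rise by IFNγ + LPS, Tlr3, with the next largest, Tlr8, with the largest fall, and Tlr2, whose promoter holds a palindromic NF-kB match. Sequences are those of RefSeq on GRCm38.p6, from 250 bases before to 50 bases after the start site, written 5′ to 3′ on the strand of the gene. Of the 10 genes, 7 matched the promoter table with 9 promoters, and Tlr4, Tlr7 and Cd14 did not. Capitals mark matches, on either strand, to an NF-kB site, to an interferon-stimulated response element core (GAAANNGAA), to an AP-1 site (TGANTCA) or to a PU.1 box (GAGGAA).
Tlr9, chr9:106222348-106222647, plus strand: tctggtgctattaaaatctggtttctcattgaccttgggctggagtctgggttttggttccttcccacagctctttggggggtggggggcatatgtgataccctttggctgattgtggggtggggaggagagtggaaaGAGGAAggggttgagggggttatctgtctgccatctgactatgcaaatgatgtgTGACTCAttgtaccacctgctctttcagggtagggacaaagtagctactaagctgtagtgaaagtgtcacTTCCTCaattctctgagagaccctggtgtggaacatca
Tlr3, chr8:45410331-45410630, minus strand: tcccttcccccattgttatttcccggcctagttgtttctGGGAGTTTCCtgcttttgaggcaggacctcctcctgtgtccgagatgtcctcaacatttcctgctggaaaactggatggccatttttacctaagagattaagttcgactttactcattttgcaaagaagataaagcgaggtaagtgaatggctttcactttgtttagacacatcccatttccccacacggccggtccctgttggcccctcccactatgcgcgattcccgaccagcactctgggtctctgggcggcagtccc
Tlr8, chrX:167264280-167264579, minus strand: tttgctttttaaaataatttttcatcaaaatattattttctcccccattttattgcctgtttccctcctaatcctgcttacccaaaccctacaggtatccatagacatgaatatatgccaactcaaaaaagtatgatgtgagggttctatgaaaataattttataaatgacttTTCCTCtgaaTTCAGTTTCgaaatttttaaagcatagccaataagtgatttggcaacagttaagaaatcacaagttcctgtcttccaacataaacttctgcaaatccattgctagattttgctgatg
Tlr2, chr3:83841559-83841858, minus strand: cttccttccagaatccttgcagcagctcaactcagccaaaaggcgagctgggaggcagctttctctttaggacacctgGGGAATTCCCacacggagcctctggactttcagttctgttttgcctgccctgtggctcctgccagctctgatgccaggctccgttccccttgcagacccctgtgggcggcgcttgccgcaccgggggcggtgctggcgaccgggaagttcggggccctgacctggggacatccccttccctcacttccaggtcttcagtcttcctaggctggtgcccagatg

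In the Tlr9 promoter an AP-1 match began 58 bases before the start site, and PU.1 boxes began 112 bases before it and at base 13 after it. The Tlr3 promoter held an NF-kB match 211 bases before the start, and the Tlr2 promoter held one 172 bases before it that reads the same on both strands. The Tlr8 promoter held a PU.1 box 77 bases and a response element core 67 bases before the start. Of all 32851 promoters of this length, 5.8% held the NF-kB site, 8.56% the response element core, 7.81% the AP-1 site and 28.3% the PU.1 box. Among the 9 promoters of the receptor genes, 2 held the NF-kB site, 2 the response element core, 1 the AP-1 site and 4 the PU.1 box. These matches are letters in the sequence, and binding was not measured.

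Tlr13, a receptor for bacterial ribosomal RNA, was the most abundant receptor transcript per length in M0, at 108 ± 4.78 CPM per kb of exon (SD, n = 3). Cd14 followed at 97.1 ± 9.32 CPM per kb, and the libraries of these 2 genes overlapped. Tlr8 at 42.8, Tlr7 at 30.8, Tlr4 at 25.6, Tlr1 at 15.7, Tlr2 at 7.10, Tlr6 at 4.88, Tlr3 at 1.72 and Tlr9 at 0.977 CPM per kb came next, without overlap between neighbours. The order of Tlr4 and Tlr7 in M0 and in both groups with DGAT1i turned when the longest transcript was taken as the length instead of all exons.

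In IFNγ + LPS macrophages Tlr13 and Cd14 still led the order, at 60.5 ± 2.36 and 58.5 ± 1.87 CPM per kb, again with overlapping libraries. Tlr9 had moved from the last place to the third at 36.0 ± 1.99 CPM per kb, ahead of Tlr1 at 31.5 ± 0.678. Tlr4 at 22.3, Tlr8 at 19.6, Tlr7 at 16.6, Tlr6 at 15.0, Tlr2 at 9.75 and Tlr3 at 6.71 CPM per kb followed, and among these neighbours only Tlr7 and Tlr6 overlapped.

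In M0 with DGAT1i, Tlr13 stood at 127 ± 2.61 CPM per kb and Cd14, at 56.7 ± 4.18, no longer overlapped with it. Tlr8 at 44.3, Tlr7 at 24.2, Tlr4 at 23.0, Tlr1 at 9.21, Tlr2 at 5.53, Tlr6 at 4.91, Tlr3 at 1.94 and Tlr9 at 0.700 CPM per kb followed, with overlap between Tlr7 and Tlr4 and between Tlr2 and Tlr6. In IFNγ + LPS with DGAT1i, Tlr13 at 64.7 and Cd14 at 63.3 CPM per kb overlapped again, followed by Tlr9 at 31.8, Tlr1 at 24.8, Tlr7 at 18.3, Tlr4 at 17.4, Tlr8 at 15.7, Tlr6 at 11.7, Tlr2 at 8.99 and Tlr3 at 4.61. Here Tlr9 overlapped with Tlr1, and Tlr7 with Tlr4.

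The summed level of the 9 Toll-like receptor genes without DGAT1i was 238 ± 11.6 CPM per kb in M0 and 218 ± 4.17 in IFNγ + LPS, and with DGAT1i it was 241 ± 1.73 and 198 ± 7.03 (SD, n = 3). These sums depend on the scaling. With library size only, an alternative added after seeing the data, they were 283 ± 14.0 for M0 against 187 ± 1.73 for stimulated cells, and 275 ± 1.71 against 169 ± 5.24 with DGAT1i. The share of each receptor in the sum is the same under both scalings. Tlr13 made up 45.6% ± 0.280 of this sum in M0 and 27.8% ± 0.967 in IFNγ + LPS, whereas Tlr9 went from 0.410% ± 0.0672 to 16.5% ± 0.685. The 4 surface receptors together held 22.4% ± 0.293 of the sum in M0 and 36.1% ± 1.22 in IFNγ + LPS. With DGAT1i they held 17.7% ± 0.218 in M0 and 31.8% ± 1.60 in IFNγ + LPS. These shares are parts of 1 sum, so that a rise of one receptor lowers the share of the others, and they are given without a test.

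**Figure D1:**
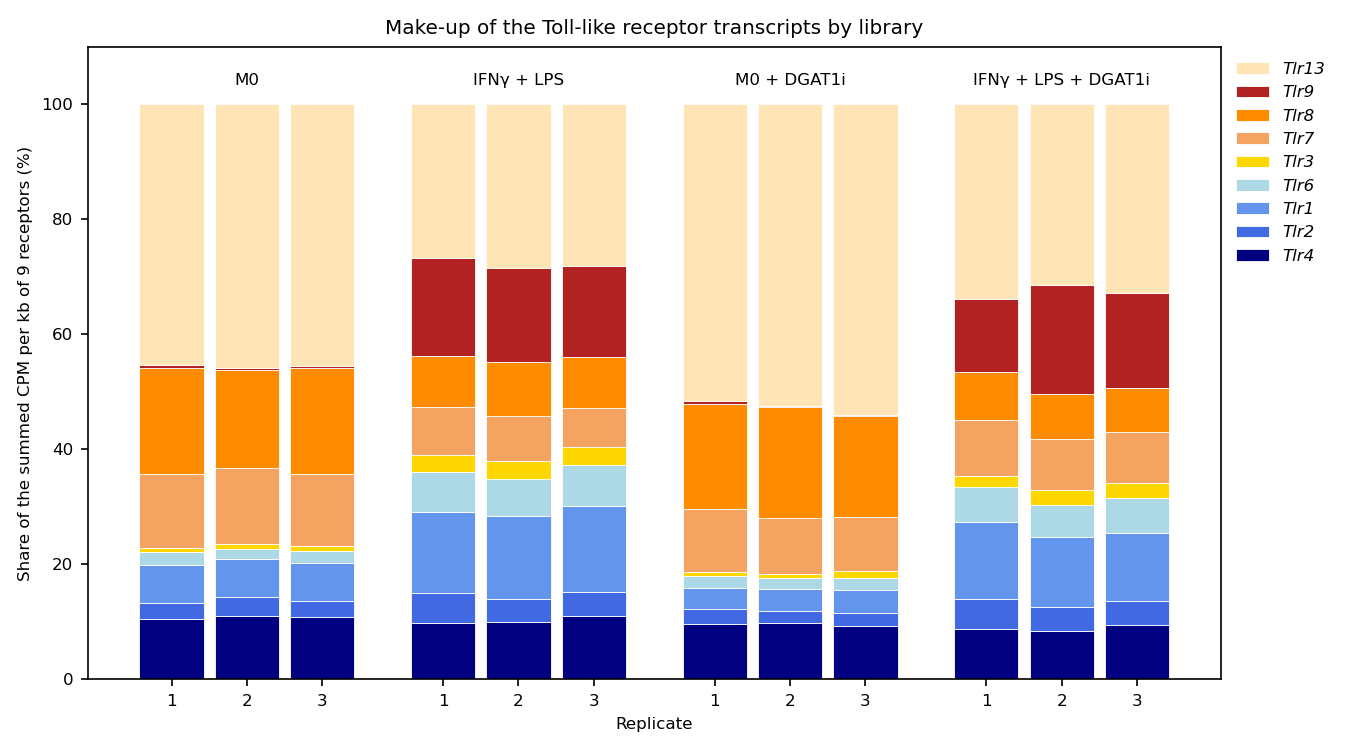
Stacked bars of the share (%) of each of 9 Toll-like receptor genes in their summed CPM per kb of exon, 1 bar per library, with surface receptors in blue and endosomal receptors in yellow, orange and red. Tlr13 holds 45.3% to 45.9% of the sum in the M0 libraries, and Tlr9 is visible as a band only with IFNγ + LPS, at 15.8% to 17.2% without DGAT1i and at 12.7% to 18.8% with it.

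IFNγ + LPS against M0 asks how inflammatory activation alters these receptors. All 10 genes passed an adjusted p of 0.05 (edgeR's quasi-likelihood test, Benjamini-Hochberg over all genes tested), 5 higher and 5 lower, where 37.1% of all genes were called higher and 36.2% lower. Tlr9, Tlr3, Tlr6, Tlr1 and Tlr2 rose relative to the median gene, and Tlr8, Tlr7, Tlr13, Cd14 and Tlr4 fell. Under scaling by library size only the log2 fold change of Tlr2 was -0.02, which is still 0.44 above the median gene of that scaling. The 3 libraries of each group did not overlap for any of the 10 genes. The share of all genes tested without such overlap was not computed, so this is not given as a trait of the receptors.

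DGAT1i was compared with its absence in M0 and in IFNγ + LPS separately. In IFNγ + LPS, 0 of the 10 genes were called higher by edgeR and 5 lower (Tlr1, Tlr3, Tlr4, Tlr6 and Tlr8), where 13.5% of all genes were called higher and 16.3% lower. With DESeq2 the count of members called higher was also 0, where it called 1121 of 12092 genes higher. At an unadjusted p under 0.05 the count was 0 as well, and the share of all genes at that limit was not computed. In M0, 1 was called higher (Tlr13) and 5 lower (Cd14, Tlr1, Tlr2, Tlr4 and Tlr7), where 11.0% of all genes were called higher and 13.4% lower. DESeq2 called 3 lower there, without Tlr2 and Tlr4, where it called 1201 of 11688 genes lower. The median log2 fold change of the 10 genes was -0.25 in both states, beside -0.01 and 0.00 over all genes tested. Tlr1 and Tlr4 were lower in both states, and Tlr9 was the 1 member called in neither.

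The difference between the DGAT1i responses, the response in IFNγ + LPS minus that in M0, was called for 5 genes. It was positive for Cd14, Tlr7 and Tlr1 and negative for Tlr3 and Tlr8, where 8.66% of all genes were called positive and 9.80% negative. With DESeq2 1 negative difference was left, that of Tlr8, where it called 750 of 11284 genes negative. With DGAT1i present in both groups, IFNγ + LPS against M0 called 6 members higher and 4 lower, where 35.3% of all genes were called in each direction. The members on each side were those without DGAT1i, except that Cd14 was called higher with DGAT1i and lower without it. This call of Cd14 was lost without a filter on low counts and without either of 2 libraries. Its sign turned under scaling by library size only, with the values given for Cd14 below. The call was also lost with DESeq2, which called 5 members higher and 4 lower, beside 3912 and 3802 of 15728 genes. These comparisons share libraries, so that each is given with its own values below. Calls that 1 library decides are named gene by gene.

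**Figure D2:**
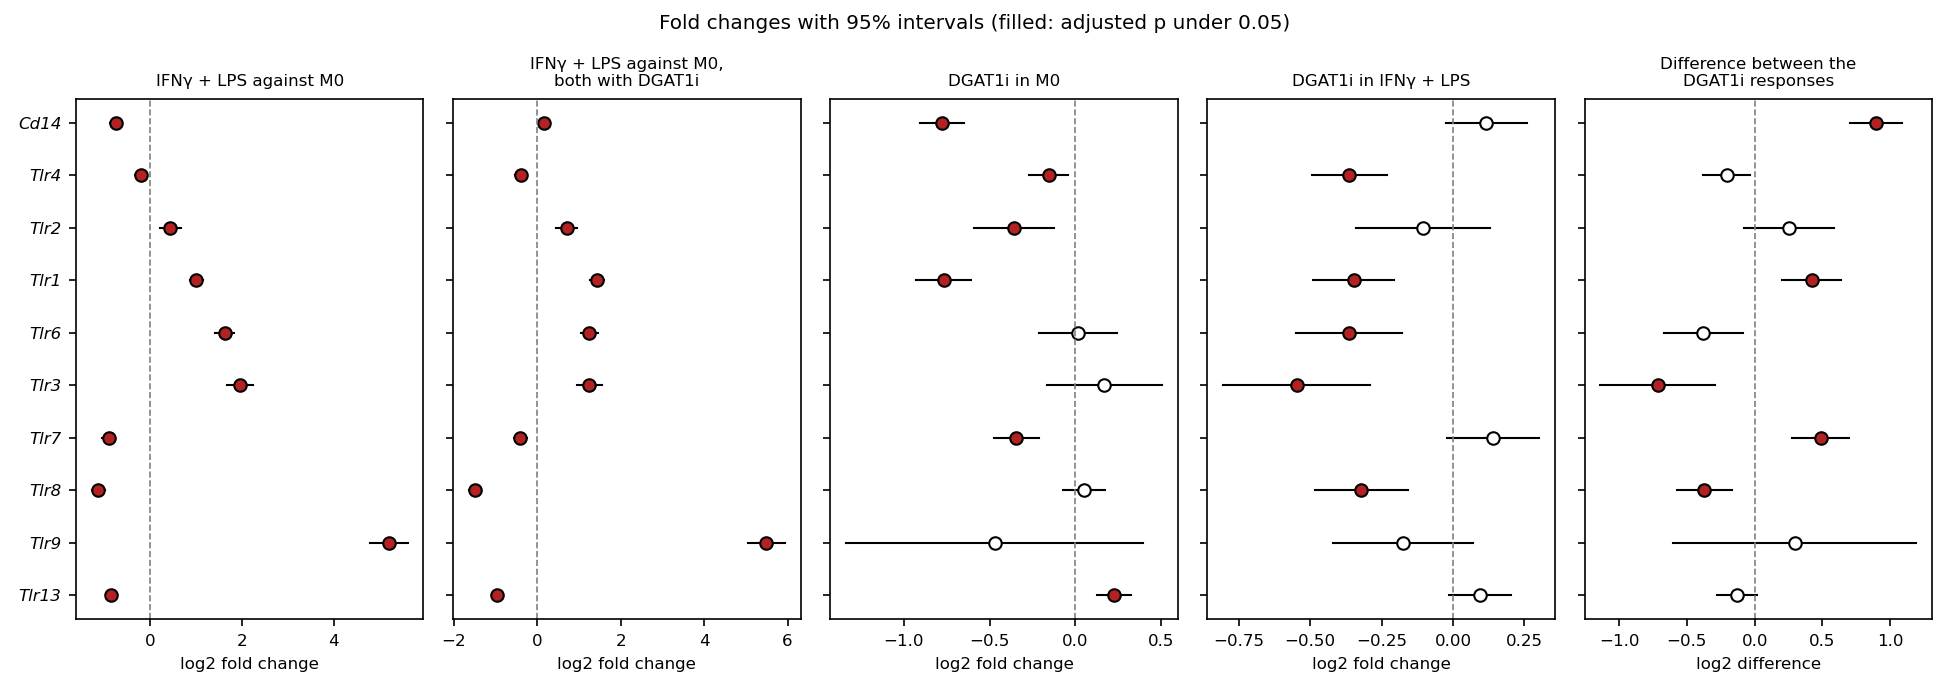
Log2 fold changes (points) with 95% intervals (lines) of the 10 genes in 5 comparisons, with filled points for an adjusted p under 0.05 by edgeR's quasi-likelihood test. Each panel has its own scale, and Tlr9 stands apart at 5.20 in the panel of IFNγ + LPS against M0. For Tlr2 in that panel, and for Cd14 in the panel with DGAT1i in both groups, the sign turned under scaling by library size only, where both stayed above the median gene, by 0.44 and 0.17.

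Cd14 (chr18:36725067-36726798 in GENCODE M21 on GRCm38, the build of all gene positions here, minus strand) encodes the membrane-anchored co-receptor that binds lipopolysaccharide and passes it to Tlr4. Its level was 156, 187 and 162 CPM in the 3 M0 libraries and 104, 102 and 98.0 CPM in IFNγ + LPS. With DGAT1i it was 89.9, 101 and 103 CPM in M0 and 116, 108 and 105 CPM in IFNγ + LPS. Each M0 library thus lay above all 9 others, and the remaining 3 groups lay close to each other.

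IFNγ + LPS lowered Cd14 by a log2 fold change of -0.73 ± 0.07 (SE; adjusted p = 7.5e-15, edgeR). DGAT1i lowered it by nearly the same amount in M0, with -0.78 ± 0.06 (adjusted p = 4.8e-15, edgeR). In IFNγ + LPS the change with DGAT1i was 0.12, with a 95% interval from -0.03 to 0.26, and did not pass the test (adjusted p = 0.226, edgeR). The difference between these responses, 0.89 ± 0.09 (adjusted p = 1.9e-10, edgeR), was the largest positive one among the 10 genes. With DGAT1i in both groups, IFNγ + LPS against M0 gave 0.16 ± 0.07 (adjusted p = 0.0332, edgeR), and under scaling by library size only it was -0.26, which is 0.17 above the median gene of that scaling (-0.43). It did not pass with DESeq2 (0.15, adjusted p = 0.140, DESeq2), without a filter on low counts (0.11, adjusted p = 0.239, edgeR), without replicate 1 of M0 with DGAT1i (0.10, adjusted p = 0.237, edgeR) or without replicate 1 of IFNγ + LPS with DGAT1i (0.12, adjusted p = 0.152, edgeR).

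Tlr4 (chr4:66827584-66930284, plus strand) encodes the lipopolysaccharide receptor, to which the LPS of the stimulus binds. Its level was 140.3, 138 and 149 CPM in M0 and 119, 123 and 131 CPM in IFNγ + LPS. Under DGAT1i the values were 128, 132 and 122 CPM at rest and 93.9, 95.8 and 100.2 CPM after stimulation. The libraries that received both the stimulus and DGAT1i were the lowest of all. IFNγ + LPS gave a log2 fold change of -0.20 ± 0.06 (adjusted p = 0.00254, edgeR), and DGAT1i in IFNγ + LPS gave -0.36 ± 0.06 (adjusted p = 1.1e-05, edgeR). With DGAT1i in both groups, IFNγ + LPS gave -0.40 ± 0.06 (adjusted p = 9.9e-08, edgeR).

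In M0 the change of Tlr4 with DGAT1i was small, -0.16 ± 0.06 (adjusted p = 0.0365, edgeR). This call was lost with DESeq2 (-0.18, adjusted p = 0.0515, DESeq2) and without a filter on low counts (-0.16, adjusted p = 0.0937, edgeR). It was also lost when replicate 1 or 3 of M0 was left out (-0.17 and -0.12, adjusted p = 0.0629 and 0.165, edgeR), and when replicate 1 or 3 of M0 with DGAT1i was left out (-0.16 and -0.13, adjusted p = 0.0760 and 0.168, edgeR). The difference between the DGAT1i responses of Tlr4 was -0.21, with a 95% interval from -0.38 to -0.03, and did not pass after adjustment (adjusted p = 0.0902, edgeR). Per length, Cd14 stood at 3.80 ± 0.474 times Tlr4 in M0 and 2.63 ± 0.208 in IFNγ + LPS, and with DGAT1i at 2.47 ± 0.235 and 3.65 ± 0.303 times in the same states (SD, n = 3).

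Tlr2 (chr3:83836272-83841767, minus strand) encodes the shared partner that pairs with Tlr1 or Tlr6 to bind lipoproteins. Its level was 20.6, 22.5 and 21.02 CPM in M0 and 34.5, 27.0 and 26.6 CPM in IFNγ + LPS, where 1 library stood above the other two. Under DGAT1i its level was 18.2, 15.2 and 16.6 CPM in M0 and 30.7, 26.1 and 24.5 CPM in IFNγ + LPS. The libraries with and without DGAT1i overlapped in IFNγ + LPS and not in M0. Relative to the median gene Tlr2 rose by 0.45 ± 0.11 with IFNγ + LPS (adjusted p = 3.9e-04, edgeR), a direction that held against the median gene under scaling by library size only, and by 0.70 ± 0.12 with DGAT1i in both groups (adjusted p = 1.1e-06, edgeR).

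DGAT1i changed Tlr2 in M0 by -0.36 ± 0.12 (adjusted p = 0.0185, edgeR). The call was lost with DESeq2 (-0.38, adjusted p = 0.0693, DESeq2), without replicate 2 of M0 (-0.32, adjusted p = 0.0835, edgeR) and without replicate 2 of M0 with DGAT1i (-0.30, adjusted p = 0.105, edgeR). In IFNγ + LPS the change with DGAT1i was -0.10, with a 95% interval from -0.34 to 0.13 (adjusted p = 0.551, edgeR). The difference between these responses was 0.25, from -0.08 to 0.59 (adjusted p = 0.311, edgeR).

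Tlr1 (chr5:64924679-64933563, minus strand) encodes the partner of Tlr2 for triacylated lipoproteins. Its level was 53.3, 49.4 and 54.9 CPM in M0 and 103, 107 and 107 CPM in IFNγ + LPS, on 367 to 394 and 489 to 592 reads. In the presence of DGAT1i it was 29.1, 30.7 and 32.7 CPM in M0 and 87.7, 84.3 and 76.6 CPM in IFNγ + LPS. None of the 4 groups overlapped, and M0 with DGAT1i was the lowest. IFNγ + LPS raised Tlr1 2.01-fold, a log2 fold change of 1.01 ± 0.07 (adjusted p = 4.3e-19, edgeR).

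DGAT1i lowered Tlr1 in M0 by a log2 fold change of -0.77 ± 0.08 (adjusted p = 1.9e-11, edgeR) and in IFNγ + LPS by -0.35 ± 0.07 (adjusted p = 9.2e-05, edgeR). The response in IFNγ + LPS minus that in M0 was 0.42 ± 0.11 (adjusted p = 0.00289, edgeR). With DGAT1i in both groups, IFNγ + LPS raised Tlr1 by 1.43 ± 0.08 (adjusted p = 3.2e-23, edgeR). All of these calls held without any single library.

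Tlr6 (chr5:64952031-64960097, minus strand), the neighbour of Tlr1 on the chromosome, encodes the partner of Tlr2 for diacylated lipoproteins. The transcripts of Tlr1 and Tlr6 share stretches of at least 80% identity over 35.6% and 29.2% of their lengths, and none of at least 95%. The level of Tlr6 was 19.8, 15.4 and 19.4 CPM in M0 and 57.3, 53.6 and 56.9 CPM in IFNγ + LPS. Under DGAT1i it was 19.5, 16.6 and 18.7 CPM in resting and 44.5, 41.9 and 43.9 CPM in stimulated cells. The resting groups overlapped, and the stimulated groups did not. IFNγ + LPS raised Tlr6 3.08-fold, by 1.62 ± 0.10 on the log2 scale (adjusted p = 1.1e-21, edgeR), and by 1.24 ± 0.10 with DGAT1i in both groups (adjusted p = 5.9e-16, edgeR).

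DGAT1i lowered Tlr6 in IFNγ + LPS, by -0.36 ± 0.09 (adjusted p = 0.00161, edgeR). In M0 its change was 0.01, with a 95% interval from -0.21 to 0.24 (adjusted p = 0.951, edgeR), and the sign turned with the scaling. The difference between the responses, -0.38 ± 0.15, did not pass (adjusted p = 0.0605, edgeR), but it did without replicate 1 of M0 (-0.44, adjusted p = 0.0440, edgeR), without replicate 3 of M0 (-0.43, adjusted p = 0.0475, edgeR) or without replicate 2 of M0 with DGAT1i (-0.45, adjusted p = 0.0389, edgeR). Per length, Tlr1 stood at 3.24 ± 0.288 times Tlr6 in M0, with libraries from 3.01 to 3.56. In IFNγ + LPS it stood at 2.10 ± 0.105, and with DGAT1i at 1.89 ± 0.205 in M0 and 2.13 ± 0.160 after stimulation, and these 3 groups overlapped.

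**Figure D3:**
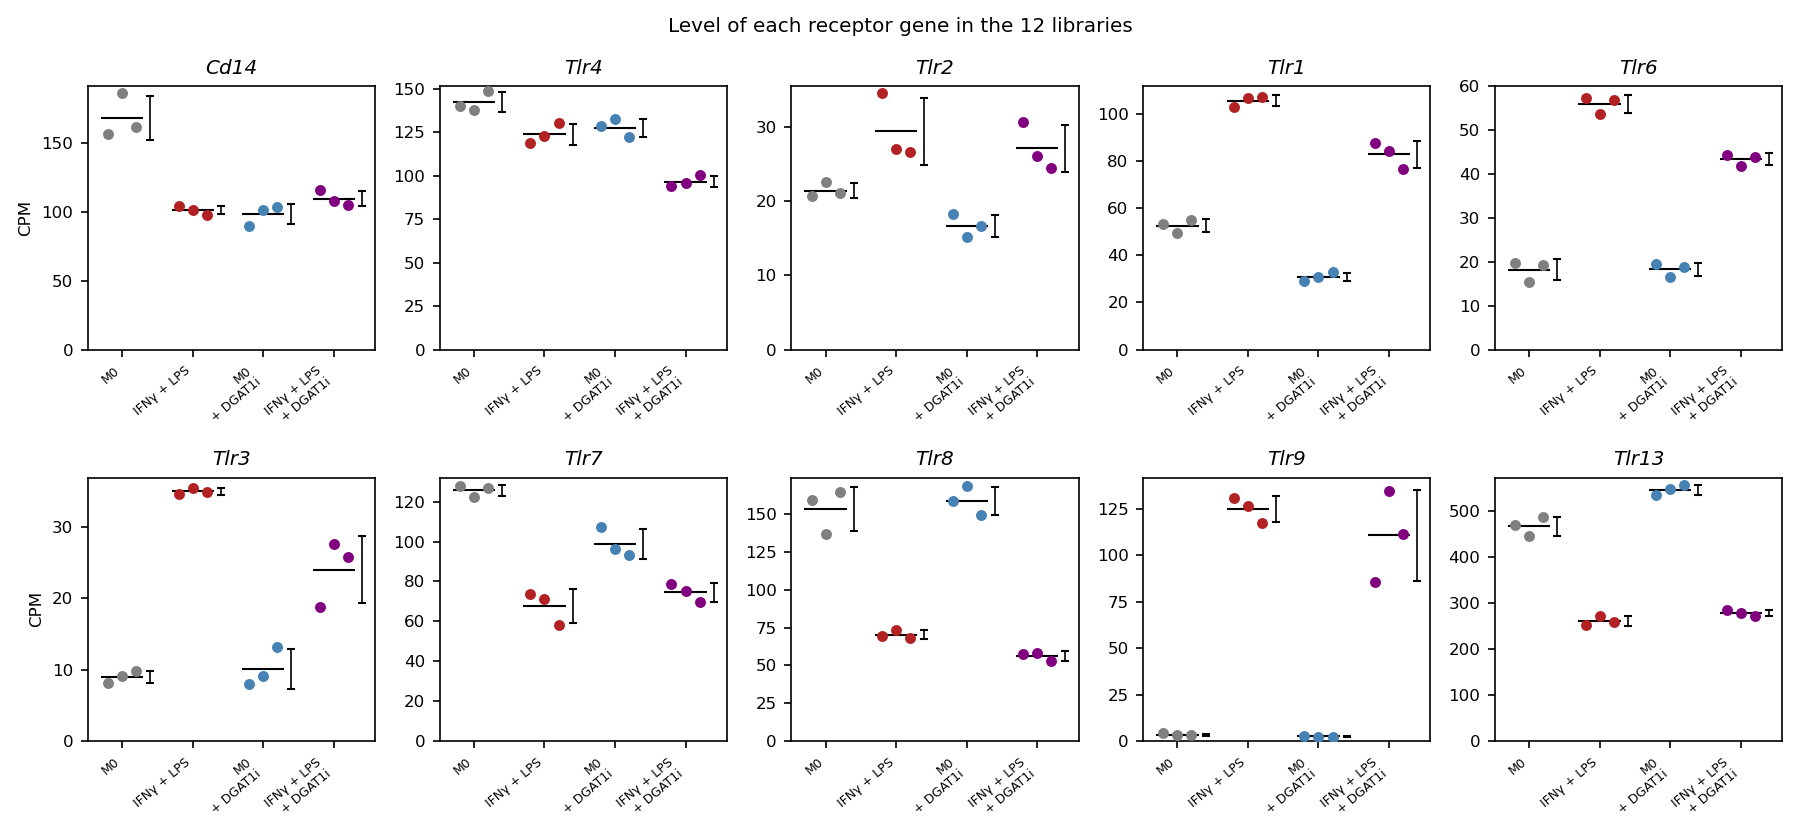
CPM of each gene in the 12 libraries (points, coloured by group), with the group mean (horizontal line) and SD (bar to its right, n = 3), on linear axes from 0. Tlr9 sits between 2.11 and 4.07 CPM in the libraries without the stimulus and between 85.8 and 135 CPM in those with it, and Cd14 is highest in M0 alone.

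Tlr3 (chr8:45395665-45411080, minus strand) encodes the receptor for double-stranded RNA. Its level was 8.14, 9.06 and 9.75 CPM in M0 and 34.5, 35.5 and 34.8 CPM in IFNγ + LPS. With DGAT1i it was 7.97, 9.09 and 13.2 CPM in M0, where replicate 3 was the highest, and 18.7, 27.5 and 25.7 CPM in IFNγ + LPS. All libraries with both the stimulus and DGAT1i lay below those with the stimulus alone. Exons of Tlr3 share 381 bases with the antisense gene Gm45542, and whether reads were counted by strand is not given in the sources used here.

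IFNγ + LPS raised Tlr3 3.88-fold, by 1.96 ± 0.14 on the log2 scale (adjusted p = 2.0e-17, edgeR), and by 1.24 ± 0.15 with DGAT1i in both groups (adjusted p = 3.7e-10, edgeR). DGAT1i lowered it in IFNγ + LPS by -0.55 ± 0.13 (adjusted p = 7.2e-04, edgeR), the largest fall among the 10 genes in that comparison. In M0 its change was 0.17, with a 95% interval from -0.17 to 0.50 (adjusted p = 0.516, edgeR). The difference between the responses was -0.72 ± 0.21 (adjusted p = 0.0114, edgeR), and it was -0.47 without replicate 3 of M0 with DGAT1i and no longer passed (adjusted p = 0.135, edgeR). Nor did it pass with DESeq2 on all 12 libraries (-0.70, adjusted p = 0.0625, DESeq2).

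Tlr7 (chrX:167304929-167330558, minus strand) encodes a receptor for single-stranded RNA. Its level was 128, 123 and 127 CPM in M0 and 73.9, 71.5 and 58.1 CPM in IFNγ + LPS. Under DGAT1i its level was 107, 96.1 and 93.3 CPM in M0 and 78.6, 75.3 and 69.6 CPM in IFNγ + LPS. Resting and stimulated libraries lay closer together with DGAT1i than without it, and did not overlap. IFNγ + LPS lowered Tlr7 by -0.89 ± 0.07 on the log2 scale (adjusted p = 1.7e-16, edgeR), and by -0.41 ± 0.07 with DGAT1i in both groups (adjusted p = 2.6e-06, edgeR).

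In M0 the change of Tlr7 with DGAT1i was -0.35 ± 0.07 (adjusted p = 3.6e-05, edgeR). In IFNγ + LPS it was 0.14, with a 95% interval from -0.02 to 0.30 (adjusted p = 0.192, edgeR). The response in IFNγ + LPS minus that in M0 was 0.49 ± 0.10 (adjusted p = 3.8e-04, edgeR).

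Tlr8 (chrX:167242696-167264329, minus strand), next to Tlr7 on the X chromosome, encodes another endosomal RNA receptor. Its level was 159, 137 and 164 CPM in M0 and 69.3, 73.6 and 68.2 CPM in IFNγ + LPS. Under DGAT1i it was 158, 169 and 149.5 CPM in resting and 57.8, 58.2 and 52.8 CPM in stimulated cells. The resting groups overlapped, and the libraries with the stimulus and DGAT1i were the lowest. IFNγ + LPS lowered Tlr8 to 0.459 of its level, by -1.12 ± 0.07 on the log2 scale (adjusted p = 1.4e-21, edgeR), and to 0.355 of its level with DGAT1i in both groups (-1.49 ± 0.07, adjusted p = 5.0e-26, edgeR).

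DGAT1i lowered Tlr8 in IFNγ + LPS by -0.32 ± 0.08 (adjusted p = 0.00164, edgeR). In M0 its change was 0.05, with a 95% interval from -0.07 to 0.17 (adjusted p = 0.613, edgeR). The difference between the responses was -0.37 ± 0.10 (adjusted p = 0.00571, edgeR), opposite in sign to that of its neighbour Tlr7. Per length, Tlr7 stood at 0.724 ± 0.0564 of Tlr8 in M0 and 0.846 ± 0.0947 in IFNγ + LPS, and with DGAT1i at 0.548 ± 0.0470 and 1.16 ± 0.0291 in the same states (SD, n = 3). By this measure Tlr7 exceeded Tlr8 only in the libraries that had both the stimulus and DGAT1i. In CPM, Tlr7 was also above Tlr8 in replicate 1 of IFNγ + LPS, at 73.9 against 69.3.

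Tlr9 (chr9:106222598-106226883, plus strand) encodes the receptor for unmethylated CpG DNA. Its level was 4.07, 3.06 and 3.06 CPM in M0, on 28, 23 and 22 reads, and 131, 127 and 117 CPM in IFNγ + LPS, on 622, 704 and 627 reads. In the presence of DGAT1i it was 2.92, 2.27 and 2.11 CPM in M0 and 85.8, 135 and 112 CPM in IFNγ + LPS. The resting libraries with DGAT1i all lay below those without it, on 16 to 22 reads each. The stimulated groups overlapped, with the lowest and the highest of the 6 libraries both from cells with DGAT1i.

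IFNγ + LPS raised Tlr9 36.7-fold, by 5.20 ± 0.19 on the log2 scale (adjusted p = 3.7e-13, edgeR), and 45.0-fold with DGAT1i in both groups (5.49 ± 0.21, adjusted p = 6.1e-13, edgeR). The change with DGAT1i in IFNγ + LPS was -0.18, with a 95% interval from -0.42 to 0.07 (adjusted p = 0.285, edgeR). It passed as -0.21 without a filter on low counts (adjusted p = 0.0261, edgeR) and as -0.35 without replicate 2 of IFNγ + LPS with DGAT1i (adjusted p = 0.00113, edgeR). In M0 it was -0.47, with a wide interval from -1.34 to 0.40 (adjusted p = 0.462, edgeR). The difference between these responses was 0.29, from -0.60 to 1.19, and did not pass (adjusted p = 0.691, edgeR).

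Tlr13 (chrX:106143204-106160493, plus strand), a receptor that mice have and humans lack, was measured on the most reads. Its level was 470.3, 445 and 486 CPM in M0 and 251, 271 and 259 CPM in IFNγ + LPS. With DGAT1i it was 534, 547 and 556 CPM in M0 and 284, 279 and 272 CPM in IFNγ + LPS. The libraries with DGAT1i lay above those without it in both states, in IFNγ + LPS by a narrow margin. IFNγ + LPS lowered Tlr13 to 0.558 of its level, by -0.84 ± 0.05 on the log2 scale (adjusted p = 2.6e-21, edgeR), and by -0.97 ± 0.05 with DGAT1i in both groups (adjusted p = 6.2e-24, edgeR).

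DGAT1i raised Tlr13 in M0 by 0.23 ± 0.05 (adjusted p = 3.6e-04, edgeR), the only rise with DGAT1i called among the 10 genes. In IFNγ + LPS its change was 0.10, with a 95% interval from -0.01 to 0.20 (adjusted p = 0.188, edgeR). Between these responses the difference was -0.13, from -0.28 to 0.02 (adjusted p = 0.231, edgeR).

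Some granulocyte markers moved with DGAT1i in the stimulated cells. Of 8 markers, 4 were tested and all 4 were called higher with DGAT1i in IFNγ + LPS (13.5% of all genes), among them S100a8 at 9.13 ± 1.19 CPM without and 34.5 ± 6.26 CPM with DGAT1i (SD, n = 3). The 8 markers summed to 15.2 to 25.5 CPM per library in IFNγ + LPS and to 63.0 to 81.0 CPM with DGAT1i, beside 31.6 to 38.7 CPM in M0 and 22.9 to 29.0 CPM in M0 with DGAT1i. Elane and Retnlg had 0 reads in IFNγ + LPS, with and without DGAT1i. Camp had 9 reads over the IFNγ + LPS libraries and 10 with DGAT1i, and Mpo had 0 and 1. Whether granulocytes were present and had a part in the receptor values was not tested.

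The 3 other Toll-like receptor genes examined were low. Tlr5, the flagellin receptor, had 11 reads over the 3 M0 libraries, 7 in M0 with DGAT1i and 0 in both stimulated groups, and Tlr11 had 0 to 6 reads per group, so that neither was tested. Tlr12, a receptor for profilin of protozoa, had 0 reads in both resting groups, and 5.90, 5.94 and 6.37 CPM in IFNγ + LPS. With DGAT1i in IFNγ + LPS it had 1.85, 2.50 and 2.57 CPM, and the groups did not overlap. It was at least 43.7-fold higher in IFNγ + LPS than in M0, taking 3 reads in the 3 M0 libraries together as the limit of detection, and fell by 1.39 ± 0.31 on the log2 scale with DGAT1i (adjusted p = 3.3e-04, edgeR).

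The dendritic cell marker Xcr1 had 86 reads over the IFNγ + LPS libraries, 12 with DGAT1i, and 1 and 0 in the corresponding resting groups. The 4 dendritic cell markers together summed to 5.62 to 7.16 CPM per library in IFNγ + LPS and to 1.04 to 1.40 CPM with DGAT1i. In the resting groups their sum was at most 0.835 CPM. The sum in IFNγ + LPS was mostly Xcr1, at 5.53 ± 0.685 CPM (SD, n = 3). Zbtb46 had 10 reads over the IFNγ + LPS libraries and 5 with DGAT1i, beside 6 and 7 at rest, Flt3 had at most 2 reads per group, and Siglech had 1 read in M0 and 0 in the other groups. Whether dendritic cells were present and had a part in the levels of Tlr12 and Tlr9 was not tested.

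Of 8 co-receptor and chaperone genes, 7 were tested, and with IFNγ + LPS 4 were called higher and 2 lower, beside 37.1% and 36.2% of all genes. Their median log2 fold change was 0.59, beside 0.01 over all genes. Unc93b1, which carries the nucleic acid receptors to endosomes, was at 324, 315 and 319 CPM in M0 and at 808, 807 and 738 CPM in IFNγ + LPS. Under DGAT1i its level was at 309.8, 319 and 304 CPM in M0 and at 583, 586 and 613 CPM in IFNγ + LPS. It rose by 1.30 ± 0.05 with IFNγ + LPS (adjusted p = 2.8e-30, edgeR) and fell by 0.40 ± 0.05 with DGAT1i in the stimulated cells (adjusted p = 4.0e-09, edgeR). The difference from its change in M0 was -0.36 ± 0.07 (adjusted p = 1.3e-04, edgeR).

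Ly96, the extracellular subunit that completes the Tlr4 receptor, was at 10.5 ± 2.0 CPM in M0 and 21.9 ± 3.2 CPM in IFNγ + LPS (SD, n = 3), a rise of 1.05 ± 0.14 on the log2 scale (adjusted p = 4.4e-09, edgeR) where Tlr4 and Cd14 fell. Its change with DGAT1i in IFNγ + LPS, -0.14, did not pass (adjusted p = 0.509, edgeR). Ly86, the partner of the Tlr4-like receptor Cd180, was lower with DGAT1i in IFNγ + LPS (-0.70 ± 0.08, adjusted p = 1.0e-09, edgeR) and in M0 (-0.75 ± 0.08, adjusted p = 7.4e-12, edgeR). Cd36, a scavenger receptor that assists Tlr2 with Tlr6, fell by 1.23 ± 0.07 with IFNγ + LPS (adjusted p = 4.5e-17, edgeR) and rose by 0.51 ± 0.06 with DGAT1i in M0 (adjusted p = 2.1e-07, edgeR). With DGAT1i in IFNγ + LPS, 1 gene of this list was called higher and 4 lower, beside 13.5% and 16.3% of all genes, with a median of -0.22 beside -0.01.

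Of 6 adaptor genes, 5 were tested, and all 5 were called higher with IFNγ + LPS, with a median log2 fold change of 1.39 beside 0.01 over all genes, of which 37.1% were called higher. Ticam2, the bridge between Tlr4 and Ticam1, rose by 1.76 ± 0.11 (adjusted p = 4.3e-21, edgeR), and Ticam1, the adaptor of Tlr3, by 1.26 ± 0.11 (adjusted p = 6.7e-15, edgeR). With DGAT1i in IFNγ + LPS, 2 adaptors were called lower, beside 16.3% of all genes, with a median of -0.05 over the 5 beside -0.01. Myd88 was at 154, 159 and 158 CPM without DGAT1i and at 101, 109.7 and 108 CPM with it, a change of -0.57 ± 0.06 (adjusted p = 2.7e-10, edgeR). Pik3ap1, which links the receptors to PI3-kinase, changed by -0.52 ± 0.06 (adjusted p = 1.7e-10, edgeR). Ticam1 and Ticam2 changed by 0.04 and -0.05 there and did not pass (adjusted p = 0.805 and 0.775, edgeR).

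Of 15 kinases and ubiquitin ligases of the pathway, all tested, 11 were called higher and 2 lower with IFNγ + LPS (37.1% and 36.2% of all genes), with a median log2 fold change of 0.62 beside 0.01. With DGAT1i in IFNγ + LPS 3 were called higher and 3 lower (13.5% and 16.3% of all genes), with a median of -0.07 beside -0.01, so that these counts lay near the share over all genes. Ikbke, a kinase that activates interferon regulatory factors, stood at 393, 390.3 and 395 CPM in IFNγ + LPS and at 165, 164 and 179 CPM with DGAT1i. This was a change of -1.22 ± 0.05 (adjusted p = 1.2e-25, edgeR), and in M0 it was -0.60 ± 0.06 (adjusted p = 1.9e-11, edgeR). Ikbkg, the scaffold of the kinase complex that releases NF-kB, rose with DGAT1i by 0.51 ± 0.06 in IFNγ + LPS (adjusted p = 4.6e-10, edgeR) and by 0.53 ± 0.06 in M0 (adjusted p = 2.5e-10, edgeR). Irak2, a kinase recruited by Myd88, rose by 1.78 ± 0.07 with IFNγ + LPS (adjusted p = 5.3e-31, edgeR).

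Of 8 negative regulators, 7 were tested, with 4 called higher and 1 lower with IFNγ + LPS (37.1% and 36.2% of all genes) and a median of 1.18 beside 0.01. With DGAT1i in IFNγ + LPS 4 were called lower (16.3% of all genes), with a median of -0.28 beside -0.01. Nfkbia, the inhibitor that holds NF-kB in the cytoplasm, rose by 3.48 ± 0.07 with IFNγ + LPS (adjusted p = 8.3e-46, edgeR). Tnfaip3, the ubiquitin-editing enzyme A20, changed by -0.35 ± 0.05 with DGAT1i in IFNγ + LPS (adjusted p = 6.7e-07, edgeR) and by 0.51 ± 0.08 in M0 (adjusted p = 9.3e-07, edgeR), with a difference of -0.86 ± 0.10 (adjusted p = 7.0e-10, edgeR). Cyld, a deubiquitinase, changed by -0.39 ± 0.06 with DGAT1i in IFNγ + LPS (adjusted p = 1.6e-06, edgeR). Il1rl1, a receptor for IL-33, went from 115 reads over the M0 libraries to 1 in IFNγ + LPS, an 83.4 times lower CPM, with a 95% interval for counting error of 14.7 to 3322.

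Of 9 genes of endosomal processing and signalling, 8 were in the table and all 8 were tested. With IFNγ + LPS 5 were called higher and 2 lower (37.1% and 36.2% of all genes), and with DGAT1i in IFNγ + LPS 1 was called higher and 4 lower (13.5% and 16.3%). In M0, DGAT1i gave 5 higher and 1 lower (11.0% and 13.4% of all genes). The medians of the 8 genes in these 3 comparisons were 0.49, -0.19 and 0.17, beside 0.01, -0.01 and 0.00 over all genes. Slc15a3, an endosomal peptide transporter, rose by 3.03 ± 0.06 with IFNγ + LPS (adjusted p = 1.0e-45, edgeR). Lgmn, an endopeptidase that cleaves endosomal receptors, changed by -0.37 ± 0.06 with DGAT1i in IFNγ + LPS (adjusted p = 7.1e-07, edgeR), and the cathepsin gene Ctsl rose by 0.37 ± 0.06 (adjusted p = 6.2e-07, edgeR). Rnaset2b, a lysosomal ribonuclease gene whose reads may be shared with its close copy Rnaset2a, changed by -0.57 ± 0.12 (adjusted p = 1.1e-04, edgeR).

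**Figure D4:**
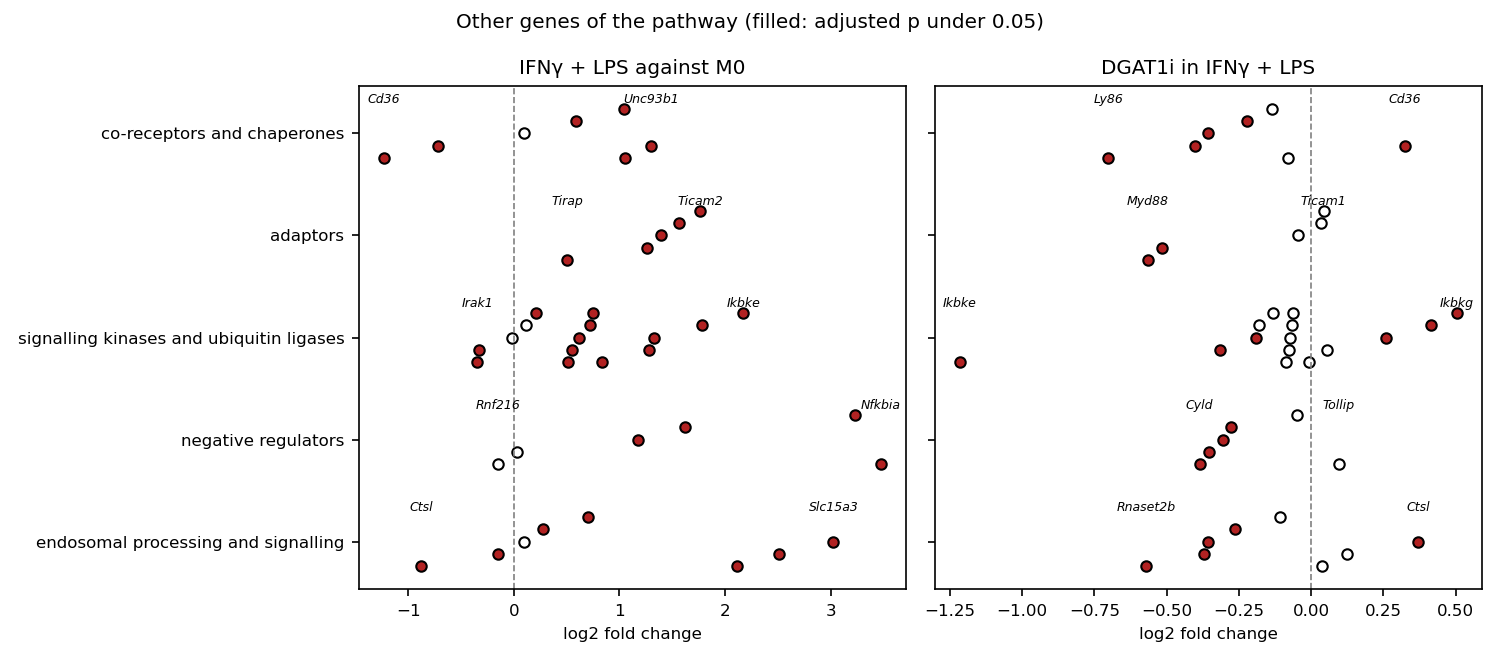
Log2 fold change of the tested genes of 5 pathway lists for IFNγ + LPS against M0 (left) and for DGAT1i in IFNγ + LPS (right), 1 point per gene, spread vertically for legibility, with the outermost genes of each list named and filled points for an adjusted p under 0.05. All 5 adaptors lie above 0 on the left, and Ikbke stands farthest below 0 on the right at -1.22. Genes with 3 reads or fewer in a group are left out.

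The genes most like each receptor over the 12 libraries were found among 10172 genes by the correlation of log2 CPM. Since 2 of the 4 groups are stimulated, many genes that respond to the stimulus follow each other closely, and these values are descriptions without a test. Tlr9 was most like Ube2z (r = 0.998) and Trim30a (0.998), Tlr3 most like Pik3ap1 (0.985) and Lrrc4 (0.984), and Tlr6 most like Lemd3 (0.995) and Gm43197 (0.994). Tlr8 was most like Slc46a3 (0.995) and Arhgap19 (0.995), Tlr13 most like Atp6v0a1 (0.994) and Igf1 (0.993), and Tlr1 most like Grap (0.987) and Mcmbp (0.984). Tlr7 followed Wdr76 (0.981) and Hist1h4b (0.977), Cd14 followed Nemp1 (0.975) and Hist2h4 (0.967), Tlr2 followed Mcf2l (0.966) and Mrpl9 (0.960), and Tlr4 followed Fgd2 (0.964) and Ppia (0.961).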

How the data were processed

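Per the file headers, the authors deposited raw read counts of 47937 genes in 12 libraries, without normalization. The submitters' processing notes name GRCm38 and DESeq2. The aligner, the counter and its strand setting were not stated in the sources used here. The library kit named in the labels differs from that in the study's methods. Genes were named from GENCODE M21 after dropping the version of the identifier (7 of the 10 receptor identifiers also agree in version). Counts were analysed with edgeR 4.0.16 in R 4.3.3 (filterByExpr, TMM, robust glmQLFit with 1 mean per group over all 12 libraries, two-sided quasi-likelihood tests, Benjamini-Hochberg over 11760 genes). Depth was 4996014 to 6621671 reads, and intervals on read ratios and the floor of 3 reads cover counting error only. Replicates of a group differed by 1.90 to 3.96 times counting noise (chi-square per gene). Levels per length use all exons of a gene.

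Named were all 10 receptor genes, per pathway list among the 2 genes with the largest called changes in each comparison, and Ly96, Unc93b1, Myd88, Ticam1 and Ticam2. Cd180, Tlr5, Tlr11 and the markers are outside this rule. The receptors and lists were chosen with earlier results of these data known. Alternatives were DESeq2 1.42.0, 2 other scalings, 2 other filters, the 6 libraries compared, a replicate block and each library left out. Copies were searched with BLAST 2.17.0, and figures were drawn with matplotlib 3.10.9. A further promoter motif is not reported here.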

Additional observations from a re-analysis of the deposited data

Results flagged for a closer look

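A response to DGAT1i that differed between stimulated and resting cells, tested as an interaction, drew attention to 5 of the 10 genes. It was 0.89 for Cd14, which fell with DGAT1i in M0 and whose change in IFNγ + LPS did not pass the test. It was 0.49 for Tlr7 and 0.42 for Tlr1, the latter lower with DGAT1i in both states. It was -0.37 for Tlr8, which fell with DGAT1i in IFNγ + LPS. It was -0.72 for Tlr3, and this one depended on replicate 3 of M0 with DGAT1i and did not pass with DESeq2. With 3 libraries per group, single libraries that stand apart were not looked for by rule.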

How the results depend on the processing

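Of the 50 results on the 10 genes (5 comparisons each), RLE scaling turned 1 in direction, to -0.0049 for Tlr6 with DGAT1i in M0, and a filter at a mean CPM of 1 changed 0. Scaling by library size only turned 4: Tlr2 with IFNγ + LPS to -0.021, Cd14 with IFNγ + LPS under DGAT1i to -0.26, and, with DGAT1i in M0, Tlr6 to -0.043 and Tlr8 to -0.0078. Relative to the median gene of that scaling these 4 stayed above 0, at 0.44, 0.17, 0.0099 and 0.045. Over all genes this scaling gave 2340 higher and 7002 lower calls for IFNγ + LPS, where TMM gave 4361 and 4254. It gave 2333 and 6799 under DGAT1i (TMM 4152 and 4151), 885 and 2092 for DGAT1i in M0 (1298 and 1571), and 1229 and 882 for the difference between both DGAT1i responses (1019 and 1152). DESeq2 left 3 genes lower with DGAT1i in M0 and 1 negative difference, losing Tlr2, Tlr4, Tlr3 (difference) and Cd14 (under DGAT1i), and gave -0.0073 for Tlr6 in M0. Over all genes it called 750 higher and 1201 lower with DGAT1i in M0, and 736 positive and 750 negative differences. Without a filter, Tlr9 with DGAT1i in IFNγ + LPS passed (-0.21, adjusted p = 0.0261) and Tlr4 in M0 and Cd14 under DGAT1i did not.

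With single libraries left out, negative differences ranged from 1 to 3 genes, the low end without replicate 3 of M0 with DGAT1i. Signs of uncalled changes turned 6 times. The ranges were -0.207 to 0.015 for Tlr2 with DGAT1i in IFNγ + LPS (above 0 without replicate 1 of IFNγ + LPS) and, with DGAT1i in M0, -0.080 to 0.317 for Tlr3, -0.095 to 0.077 for Tlr6 and -0.029 to 0.102 for Tlr8. Of 600 such results 581 kept direction and call. The causes were not tested. The sample labels share replicate numbers, and deviations of samples with the same number were at most weakly correlated (r from -0.02 to 0.07, against -0.06 to 0.04 for other numbers). Of 12 libraries 9 correlated best with their own number, a hint from the data and not from the design. The fit with the replicate number as a block changed none of the 50 results and called 4371 genes higher and 4264 lower with IFNγ + LPS. At this depth Tlr9 in M0 rests on 73 reads over 3 libraries.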
